A study of Homo sapiens with 12 samples.

Results

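A set of 9 genes of the TGF-beta and BMP pathway was followed through RET inhibition in a pair of human cancer cell lines: the ligand genes TGFB1, TGFB2, TGFB3, INHBA, BMP2 and BMP4, the inhibitor SMAD7, and the BMP-responsive genes ID1 and ID3. They were chosen by symbol, with earlier results of these data known, and all 9 were found among the 37247 genes of each expression table. LC-2/ad is a line from a lung adenocarcinoma and TPC-1 a line from a papillary thyroid carcinoma, and the series describes both as RET-aberrant. Each line was sequenced as parent cells, whose treatment is given as none, and after 48 h in 100 nM selpercatinib (a drug that blocks the receptor tyrosine kinase RET), with 3 libraries in each of the 4 groups. Both lines grew in medium with serum, and whether parent cells received the drug's solvent is not stated. Each line stands alone for its tumour type, and separate cultures are not stated for the libraries of a group. The p-values therefore measure only library-to-library spread, which can be technical.

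TGF-beta, activin and BMP ligands are secreted dimers that bring together type I and type II serine/threonine kinase receptors on the cell surface. TGF-beta and activin receptors phosphorylate SMAD2 and SMAD3, BMP receptors phosphorylate SMAD1, SMAD5 and SMAD9, and both kinds of SMAD enter the nucleus with SMAD4. SMAD7 is induced by the pathway and blocks its receptors, and the ID genes, which encode inhibitors of basic helix-loop-helix transcription factors, are induced by BMP signals. In epithelial tumours TGF-beta is known both for restraining growth and for inducing mesenchymal features. Transcript levels say nothing of secreted or active ligand.

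Expression was given as TPM, a measure scaled for transcript length and library total, so levels can be compared between genes, but the sequencing depth is unknown. From 13713 to 14336 genes reached 1 TPM in the libraries of LC-2/ad and from 12554 to 12967 in those of TPC-1. Of 6 lung epithelial markers 5 had a mean of at least 1 TPM in LC-2/ad, SFTPB being the exception. In TPC-1 2 of 6 thyroid markers did (PAX8 and FOXE1), NKX2-1 was listed at 0 in all libraries, and TG and TSHR had group means under 1 TPM. In LC-2/ad 3 of the 6 thyroid markers did in parent and 4 in treated cells, and in TPC-1 3 of the 6 lung markers did. PAX8 had 190 TPM in TPC-1 and 14.8 TPM in LC-2/ad parent cells, but FOXE1 had 9.11 and 11.6 TPM. By this count the thyroid list does not mark out TPC-1, so its thyroid label does not rest on these markers. None of 4 blood markers had a mean of 1 TPM in any group. The summed level of 4 fibroblast markers was 4.57 to 5.80 TPM in LC-2/ad parent libraries and 6.19 to 9.31 TPM in treated ones, with group means of 1 TPM or more for PDGFRA and, after treatment, LUM, and PDGFRB near 0. The summed level of 3 endothelial markers was 2.68 to 3.12 and 3.62 to 5.09 TPM, with CDH5 alone at a group mean of 1 TPM or more. In TPC-1 the fibroblast sum was 2.36 to 6.32 TPM in parent and 3.25 to 5.57 TPM in treated libraries. The samples are cultured lines and not mixed tissue, and these low levels were not tested as a sign of other cells. In such bulk samples the number of cells that express a gene and the RNA per cell cannot be told apart. The share of TPM from mitochondrial DNA was 9.72% to 9.82% in parent and 14.0% to 15.0% in treated libraries of LC-2/ad, and 6.41% to 7.56% and 5.83% to 6.82% in TPC-1.

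In LC-2/ad parent cells the order of mean TPM was ID1, ID3, TGFB1, TGFB2, SMAD7, BMP4, TGFB3, BMP2 and INHBA, and of the neighbours in that order only BMP4 and TGFB3 had overlapping libraries. In TPC-1 parent cells the order was ID1, TGFB1, ID3, INHBA, SMAD7, TGFB3, BMP4, TGFB2 and BMP2, and the libraries overlapped for INHBA and SMAD7 and for TGFB3 and BMP4. INHBA, near the bottom in LC-2/ad at 0.207 TPM, stood at 36.7 TPM in TPC-1 parent cells, and TGFB2 stood at 22.0 TPM in LC-2/ad and 1.31 TPM in TPC-1. The tables of the lines were made separately, and these levels between lines were not tested. After treatment TGFB2 stood above TGFB1 in LC-2/ad with no overlap, TGFB3 and BMP2 overlapped, and the rest of the order was as in parent cells. In treated TPC-1 cells the libraries of TGFB1 and ID3 overlapped, as did those of INHBA and SMAD7 and those of TGFB3, TGFB2 and BMP4.

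**Figure D1:**
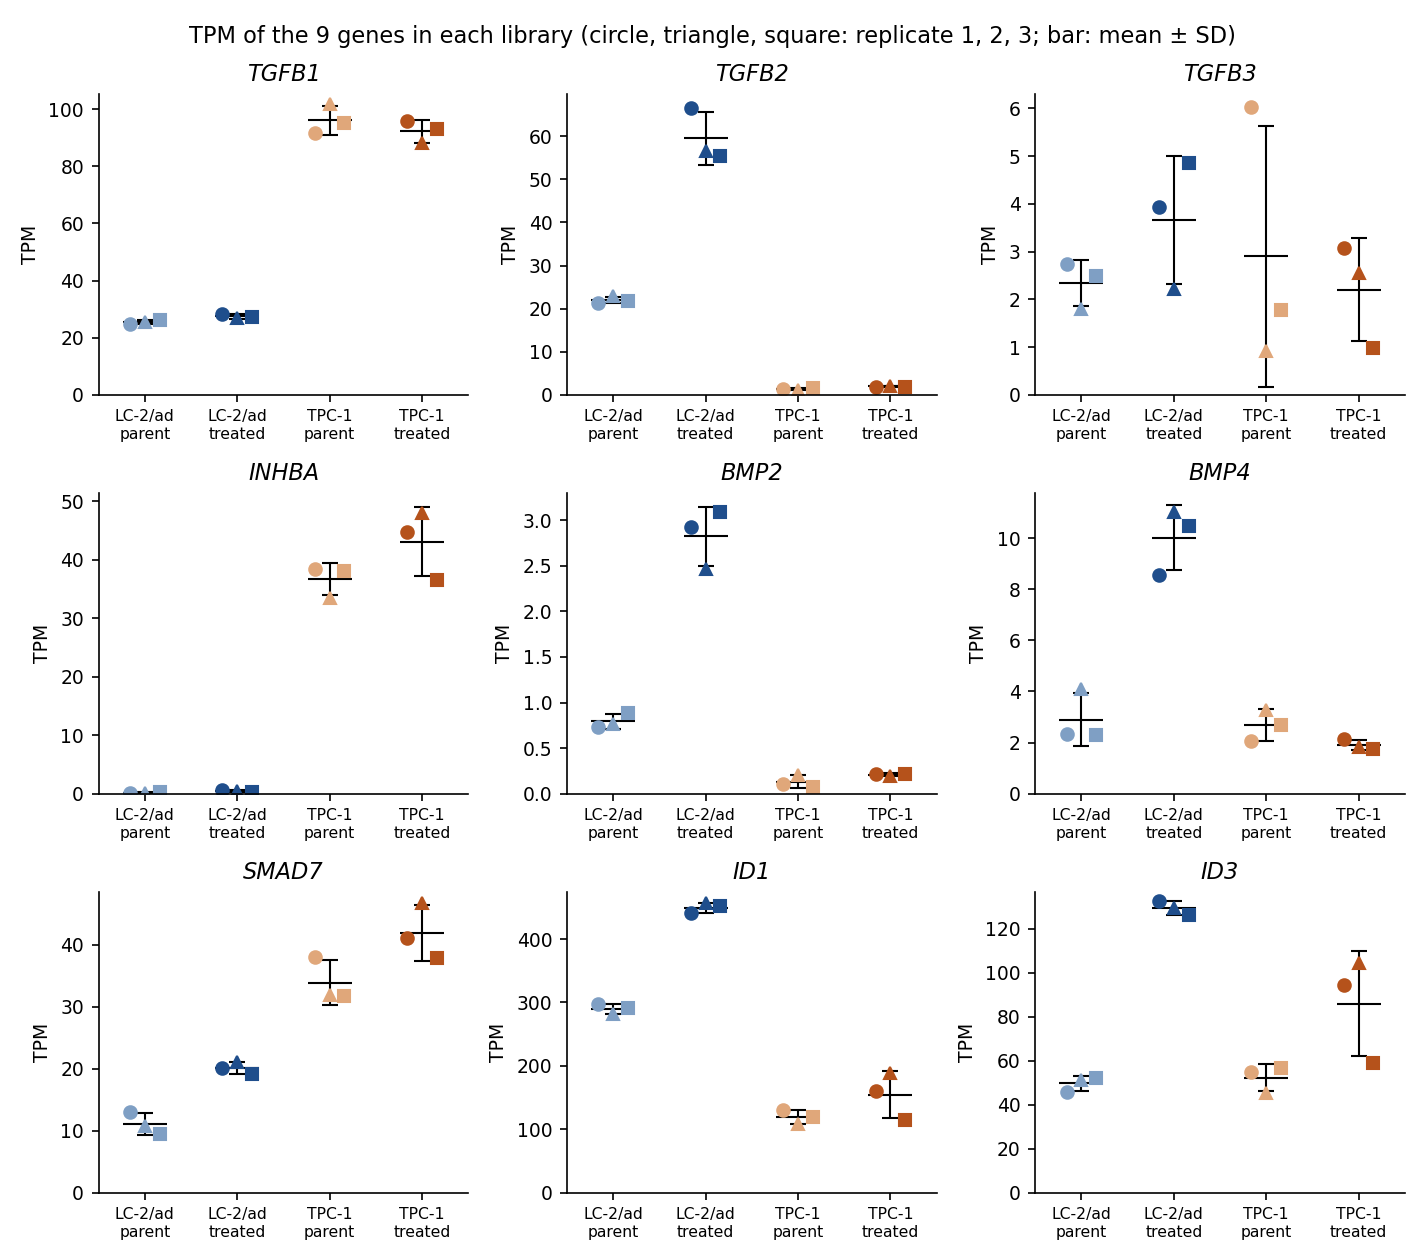
TPM of each of the 9 genes (vertical axes, linear, each with its own scale) in the 12 libraries, by line and treatment (horizontal axis). Points are libraries, with symbols for replicate 1, 2 and 3, and bars are the mean and SD of 3 libraries. In LC-2/ad the treated libraries of TGFB2, BMP2, BMP4, SMAD7, ID1 and ID3 lie clear above the parent ones, and in TPC-1 treated replicate 3 is the lowest treated library for INHBA, SMAD7, ID1 and ID3.

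In LC-2/ad 6 of the 8 genes that could be tested rose with selpercatinib and none fell, where 30.6% of all 14118 tested genes rose, 24.4% fell and 55.0% changed in either direction. A gene was tested in a line if its mean was at least 1 TPM, with limma on log2(TPM + 1), and was said to change at a Benjamini-Hochberg adjusted p under 0.05 over all tested genes. BMP4 (log2 fold change 1.52), TGFB2 (1.39), ID3 (1.36) and BMP2 (1.09) rose most, followed by SMAD7 (0.82) and ID1 (0.63). The median log2 fold change of the 8 was 0.95, and that of all tested genes 0.07. BMP2 passed the filter through its treated libraries, its parent mean being under 1 TPM, and INHBA was not tested. The treated libraries lay above all parent libraries for 7 of the 8, against 35.3% of all tested genes. With median-of-ratios scaling 3442 genes rose and 4318 fell over the whole table, in place of 4319 and 3451, and with mitochondrial genes removed 5216 and 2833, while the same 6 genes kept their direction and their call under both scalings.

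In TPC-1 none of the 8 tested genes changed at an adjusted p under 0.05, where 4.96% of all 12825 tested genes did. At an unadjusted p under 0.05 there were 2, SMAD7 and ID3, beside 21.5% of all tested genes. The 8 log2 fold changes ran from -0.33 for BMP4 to 0.67 for ID3, with a median of 0.26 against 0.05 over all tested genes. The treated libraries lay above all parent libraries for 2 of the 8, TGFB2 and ID3, against 16.6% of all tested genes. Without treated replicate 3, 2 of the 8 passed the test at an adjusted p under 0.05, ID1 and ID3. That count has no share of all tested genes beside it, so it is not read as a result about these genes. BMP2, with a mean of 0.170 TPM in TPC-1, was not tested.

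**Figure D2:**
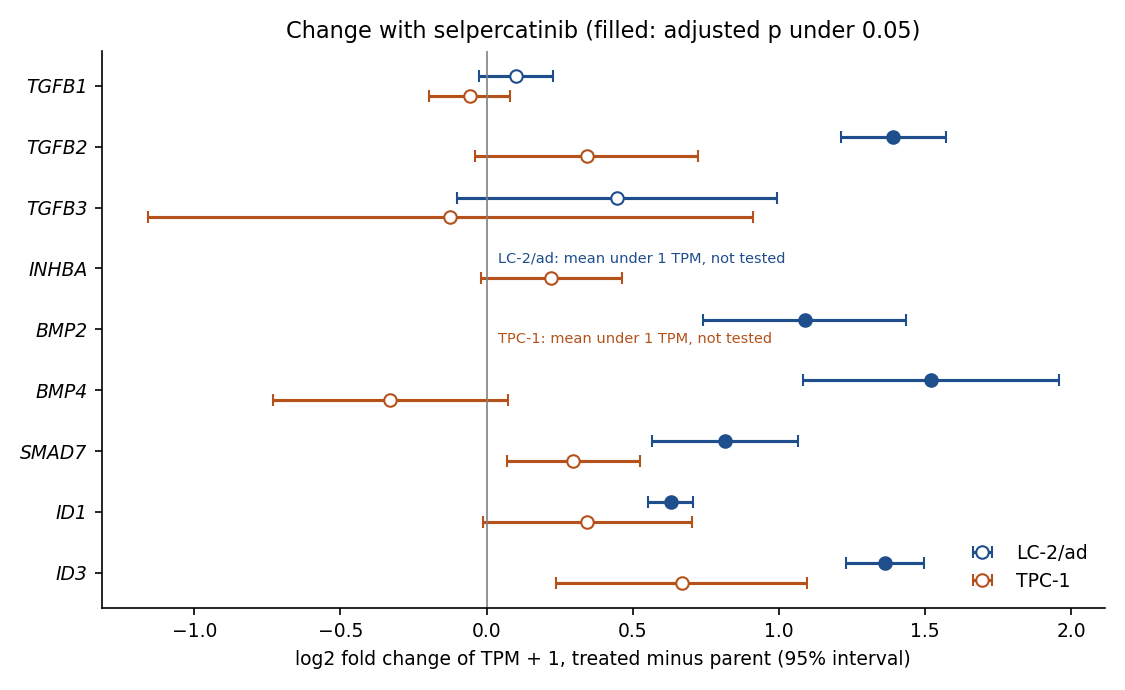
Log2 fold change of TPM + 1, treated minus parent (horizontal axis), of the 9 genes in LC-2/ad and TPC-1, with limma's 95% interval. Filled points have an adjusted p under 0.05. The 6 filled points, from 0.63 to 1.52, are all of LC-2/ad, and no TPC-1 point is filled.

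Of the 3 TGF-beta isoforms TGFB2 alone passed the test, in LC-2/ad. TGFB2 (ENSG00000092969, chr1:218346235-218444619, plus strand, GRCh38), a secreted ligand of the TGF-beta receptors, had 21.4, 22.8 and 21.9 TPM in the LC-2/ad parent libraries and 66.7, 56.6 and 55.5 TPM in the treated ones. All treated libraries were higher than all parent libraries, and treated replicate 1 was the highest. The mean rose from 22.0 ± 0.731 to 59.6 ± 6.15 TPM (SD, n = 3), a 2.70-fold change of the mean TPM, with a log2 fold change of 1.39 ± 0.08 (SE, limma adjusted p = 4.91e-06), which ranked 230 among the rises of all tested genes. In TPC-1 the same gene was close to the filter, at 1.36, 1.11 and 1.47 TPM in parent and 1.82, 2.12 and 1.85 TPM in treated libraries. The treated libraries again lay above the parent ones, but the log2 fold change of 0.34 ± 0.17 had a 95% interval from -0.04 to 0.72 and did not pass the test (limma adjusted p = 0.284).

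TGFB1 (ENSG00000105329, chr19:41301587-41353911, minus strand, GRCh38), the isoform best known from tissues and tumours, passed the test in neither line. In LC-2/ad it had 24.9, 25.5 and 26.1 TPM in parent and 28.2, 26.7 and 27.4 TPM in treated libraries. The treated libraries were all higher, by a small margin: the log2 fold change was 0.10 ± 0.05 with an interval from -0.03 to 0.23 (limma adjusted p = 0.155). With mitochondrial genes removed and the rest rescaled, the change was 0.18 with an adjusted p of 0.0273, so this gene's call in LC-2/ad depends on the scaling. In TPC-1 it had 91.6, 101.7 and 95.3 TPM in parent and 96.0, 88.1 and 93.0 TPM in treated libraries, which overlapped. The log2 fold change there was -0.06 ± 0.06, with an interval from -0.20 to 0.08 (limma adjusted p = 0.641).

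TGFB3 (ENSG00000119699, chr14:75958099-75982991, minus strand, GRCh38), the third isoform, was low and uneven between libraries. In LC-2/ad it had 2.75, 1.80 and 2.48 TPM in parent and 3.94, 2.21 and 4.85 TPM in treated libraries. The groups overlapped through treated replicate 2, and the log2 fold change of 0.45 ± 0.24 did not pass the test (limma adjusted p = 0.143). Without that library the change was 0.70 with an adjusted p of 0.0181. In TPC-1 it had 6.02, 0.914 and 1.77 TPM in parent and 3.08, 2.54 and 0.988 TPM in treated libraries. Parent replicate 1 stood above every other TPC-1 library, and the log2 fold change of -0.12 ± 0.46 (limma adjusted p = 0.911) became 0.41 without it and 0.19 without treated replicate 3.

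The makeup of the TGF-beta transcripts differed between the LC-2/ad groups. TGFB2 supplied 43.6%, 45.5% and 43.3% of the summed TPM of the 3 isoforms in parent libraries and 67.5%, 66.2% and 63.3% in treated ones. No treated library overlapped a parent one. The TGFB1 share was 51.1% ± 0.519 in parent and 30.3% ± 1.55 in treated cells (SD, n = 3), while the summed TPM of the isoforms was 49.9 ± 0.755 and 90.7 ± 7.11. In TPC-1 TGFB1 supplied 95.8% ± 2.87 of the sum in parent and 95.7% ± 1.14 in treated cells, and the sum was 100.4 ± 2.84 and 96.5 ± 4.14 TPM. These shares were not tested.

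**Figure D3:**
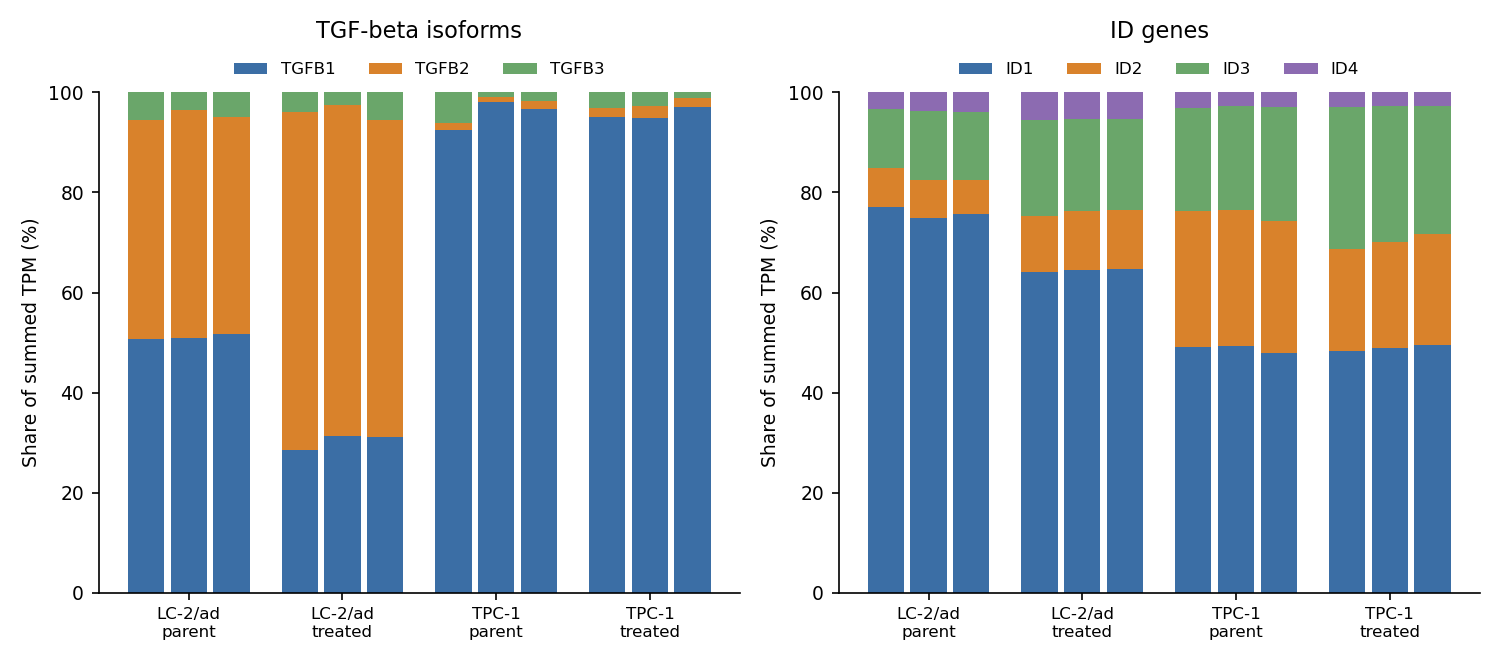
Share of the summed TPM (vertical axes, %) taken by the 3 TGF-beta isoforms and by the 4 ID genes, with 1 stacked column per library in replicate order. The TGFB2 share is 43.3% to 45.5% in LC-2/ad parent and 63.3% to 67.5% in treated libraries, and TGFB1 takes over 90% of every TPC-1 column.

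INHBA encodes the subunit that forms activin A, and its transcript was above 1 TPM in TPC-1 alone. INHBA (ENSG00000122641, chr7:41667168-41705834, minus strand, GRCh38) had 38.4, 33.5 and 38.0 TPM in the TPC-1 parent libraries and 44.7, 48.1 and 36.5 TPM in the treated ones. Treated replicate 3 fell among the parent libraries, and the log2 fold change of 0.22 ± 0.11, with an interval from -0.02 to 0.46, did not pass the test (limma adjusted p = 0.274). In LC-2/ad it had 0.166, 0.209 and 0.246 TPM in parent and 0.623, 0.414 and 0.259 TPM in treated libraries. All of these were under 1 TPM and no test was made.

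Both BMP ligands rose in LC-2/ad from a low level. BMP4 (ENSG00000125378, chr14:53949736-53958761, minus strand, GRCh38), a ligand of the BMP receptors, had 2.32, 4.09 and 2.30 TPM in parent and 8.57, 11.0 and 10.5 TPM in treated libraries. The lowest treated library was above the highest parent one. The mean rose from 2.90 ± 1.03 to 10.02 ± 1.28 TPM (SD, n = 3), 3.45-fold, with a log2 fold change of 1.52 ± 0.19 (SE, limma adjusted p = 0.000303, rank 169 among the rises). In TPC-1 BMP4 started at a like level, 2.07, 3.29 and 2.70 TPM, and had 2.14, 1.83 and 1.77 TPM after treatment. The groups overlapped, and the log2 fold change of -0.33 ± 0.18, with an interval from -0.73 to 0.07, did not pass the test (limma adjusted p = 0.326).

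BMP2 (ENSG00000125845, chr20:6767664-6780280, plus strand, GRCh38), the closest relative of BMP4, had 0.730, 0.769 and 0.887 TPM in the LC-2/ad parent libraries and 2.92, 2.46 and 3.09 TPM in the treated ones. The groups were well apart, although every value was low and the gene passed the filter only through its treated libraries. The fold of the mean TPM was 3.55, and the log2 fold change of TPM + 1, which understates a change at this level, was 1.09 ± 0.15 (limma adjusted p = 0.000538). In TPC-1 BMP2 had 0.102, 0.210 and 0.0795 TPM in parent and 0.214, 0.194 and 0.220 TPM in treated libraries. These levels were too low for the test.

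SMAD7, the inhibitory SMAD, rose in LC-2/ad and did not pass the test in TPC-1. SMAD7 (ENSG00000101665, chr18:48919853-48952052, minus strand, GRCh38) had 13.0, 10.8 and 9.55 TPM in the LC-2/ad parent and 20.2, 21.1 and 19.2 TPM in the treated libraries, with no overlap. Its mean rose from 11.1 ± 1.73 to 20.2 ± 0.936 TPM (SD, n = 3), with a log2 fold change of 0.82 ± 0.11 (SE, limma adjusted p = 0.000431). In TPC-1 it had 38.1, 31.9 and 31.8 TPM in parent and 41.1, 46.8 and 37.9 TPM in treated libraries. Parent replicate 1 was just above treated replicate 3, and the log2 fold change of 0.30 ± 0.10, with an interval from 0.07 to 0.52, did not pass after adjustment (limma adjusted p = 0.132).

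ID1 was the most abundant of the 9 transcripts in every group. ID1 (ENSG00000125968, chr20:31605283-31606515, plus strand, GRCh38), an inhibitor of basic helix-loop-helix factors and a standard readout of BMP signals, had 298, 282 and 292 TPM in the LC-2/ad parent and 441, 456 and 452 TPM in the treated libraries. The mean rose from 290.3 ± 7.99 to 449 ± 7.95 TPM (SD, n = 3), 1.55-fold, with a log2 fold change of 0.63 ± 0.03 (SE, limma adjusted p = 3.88e-06). In TPC-1 it had 131, 108 and 119 TPM in parent and 161, 188 and 115 TPM in treated libraries. Treated replicate 3 lay among the parent libraries, and the log2 fold change of 0.34 ± 0.16, with an interval from -0.01 to 0.70, did not pass the test (limma adjusted p = 0.252). Without that library it was 0.54, with an adjusted p of 0.0232.

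ID3 (ENSG00000117318, chr1:23557918-23559794, minus strand, GRCh38), a further member of the ID family, had 45.8, 51.3 and 52.3 TPM in the LC-2/ad parent and 132.6, 129.7 and 126.5 TPM in the treated libraries. The mean rose from 49.8 ± 3.49 to 129.6 ± 3.06 TPM (SD, n = 3), 2.60-fold, with a log2 fold change of 1.36 ± 0.06 (SE, limma adjusted p = 1.43e-06). In TPC-1 it had 55.1, 45.5 and 56.6 TPM in parent and 94.4, 104.4 and 58.9 TPM in treated libraries. All treated libraries were above all parent ones, replicate 3 only just. The log2 fold change of 0.67 ± 0.19, with an interval from 0.24 to 1.10, did not pass after adjustment (limma adjusted p = 0.0827), and without treated replicate 3 it was 0.91 with an adjusted p of 0.00398.

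Within the ID family ID1 held 75.9% ± 1.09 of the summed TPM in the LC-2/ad parent group and 64.5% ± 0.352 in the treated group (SD, n = 3). The ID3 share was 13.0% ± 1.00 and 18.6% ± 0.605, and the sum of the 4 ID genes was 382 ± 5.74 and 697 ± 9.32 TPM. In TPC-1 the ID1 share was 48.8% ± 0.762 and 49.0% ± 0.627. There the ID3 share was 21.4% ± 1.22 in parent and 27.0% ± 1.45 in treated cells, and the ID2 share 26.9% ± 0.467 and 21.2% ± 0.879. Within each line the ID3 share was higher in every treated library than in any parent library. Shares within a library do not depend on its scaling, and they were not tested.

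TGFB2, SMAD7, ID1 and ID3 were picked for their like pattern over the libraries (r from 0.83 to 0.96), and their promoter windows are shown. That r was centred by line and not by treatment, so it holds their common rise in LC-2/ad and does not speak to shared control. BMP4, with r from 0.58 to 0.82 with these 4, is not shown. Each window is the 250 bases before the RefSeq start of the gene (GRCh38.p14), written 5′ to 3′ on the gene's strand. Of the 9 genes 8 had windows in the RefSeq table, 13 windows in all, and the first SMAD7 window of 3 is given. RefSeq starts can differ from the gene bounds given above. Capitals mark the SMAD box CAGAC or its reverse GTCTG.
TGFB2: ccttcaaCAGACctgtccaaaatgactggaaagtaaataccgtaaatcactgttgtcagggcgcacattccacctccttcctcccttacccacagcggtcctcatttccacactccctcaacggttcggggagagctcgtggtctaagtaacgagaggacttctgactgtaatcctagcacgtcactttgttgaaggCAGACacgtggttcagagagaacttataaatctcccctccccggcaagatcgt
SMAD7: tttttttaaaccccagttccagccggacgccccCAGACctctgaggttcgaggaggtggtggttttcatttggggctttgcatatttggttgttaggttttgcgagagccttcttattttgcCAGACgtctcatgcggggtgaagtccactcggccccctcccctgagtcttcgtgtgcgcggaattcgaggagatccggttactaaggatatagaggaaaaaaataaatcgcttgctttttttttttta
ID1: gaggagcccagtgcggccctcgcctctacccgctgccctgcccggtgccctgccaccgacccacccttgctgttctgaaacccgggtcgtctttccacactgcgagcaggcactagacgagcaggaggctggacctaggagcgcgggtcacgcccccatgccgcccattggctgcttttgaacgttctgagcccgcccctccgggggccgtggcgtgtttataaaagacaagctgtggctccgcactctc
ID3: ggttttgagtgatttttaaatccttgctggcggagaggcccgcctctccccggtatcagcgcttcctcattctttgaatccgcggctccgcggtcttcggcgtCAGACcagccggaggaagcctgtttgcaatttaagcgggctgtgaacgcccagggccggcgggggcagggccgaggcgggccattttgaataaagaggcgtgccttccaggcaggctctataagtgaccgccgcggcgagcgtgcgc
The windows lie at chr1:218345086-218345335 (TGFB2, plus strand), chr18:48950966-48951215 (SMAD7, minus strand), chr20:31605039-31605288 (ID1, plus strand) and chr1:23559502-23559751 (ID3, minus strand). CAGAC, searched on both strands, began 243 and 53 bases before the TGFB2 start, 217 and 128 before the SMAD7 start and 147 before the ID3 start, and the ID1 window did not hold these letters. It was present in 7 of the 13 windows, of 5 of the 8 genes (TGFB2, TGFB3, BMP4, SMAD7 and ID3), and 38.0% of all 35116 RefSeq windows of this length held it. The palindrome GTCTAGAC, a form of the SMAD box, was in none of the 13 windows and in 0.182% of all windows. GGCGCC, a motif bound by the BMP SMADs, was in 1 window of BMP4 and in 16.4% of all windows. TATAAA was in 5 of the 13 windows, each of another gene, 29 bases before the TGFB2 start and 33 and 31 before that of ID1 (overlapping matches on opposite strands), and in 10.7% of all windows. CAGAC and GTCTAGAC share no full match. A match is a description of the letters and not of a bound site.

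The change differed between the lines for 4 of the 7 genes tested in both. For these 4 the change was lower in TPC-1, as it was for 14.4% of all 11996 genes tested, while 36.6% differed in either direction. The difference, TPC-1 minus LC-2/ad on the log2 scale in a fit of all 12 libraries, was -1.85 ± 0.26 for BMP4 (SE, limma adjusted p = 0.000129). It was -1.05 ± 0.14 for TGFB2 (limma adjusted p = 8.82e-05), -0.70 ± 0.23 for ID3 (adjusted p = 0.0298) and -0.52 ± 0.16 for SMAD7 (adjusted p = 0.0200). This fit takes 1 spread for both lines. The SE of the TGFB2 difference, 0.14, is under the 0.17 of its TPC-1 change alone and may be too small. With a spread weight per line these 4 genes kept their call. Not past the test were ID1 at -0.29, with an interval from -0.69 to 0.12, TGFB1 at -0.16, from -0.33 to 0.01, and TGFB3 at -0.57, from -1.84 to 0.69. The TGFB1 difference did pass under 1 other setting (limma adjusted p = 0.0306), and that of ID1 in 1 fit that left out a library (limma adjusted p = 0.0422). The ID3 difference was the least firm of the 4: it lost its call with the replicate block, with no filter and in 5 of the 12 fits that left out a library, with adjusted p up to 0.0673. The median over the 7 was -0.57, against 0.04 over all genes tested. INHBA and BMP2 were each tested in 1 line alone, so their difference was not tested.

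The rest of the pathway was described from 8 lists of 90 genes, also chosen with earlier results of these data known. In LC-2/ad 56 of them were tested, 32 rose and 5 fell (28 and 9 with median-of-ratios scaling), where 30.6% and 24.4% of all tested genes did, with a median log2 fold change of 0.30. In TPC-1 57 were tested, 7 rose, where 3.75% of all tested genes did, and 1 fell, where 1.21% did (7 and 3 with median-of-ratios scaling), with a median of 0.10. The gene that fell, ANGPTL4, passed the filter only through its parent libraries. In the comparison of the lines 49 were tested, and the change was lower in TPC-1 for 19 and higher for 6, beside 14.4% and 22.2% of all genes tested (24 and 3 with mitochondrial genes removed). The median difference was -0.24.

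**Figure D4:**
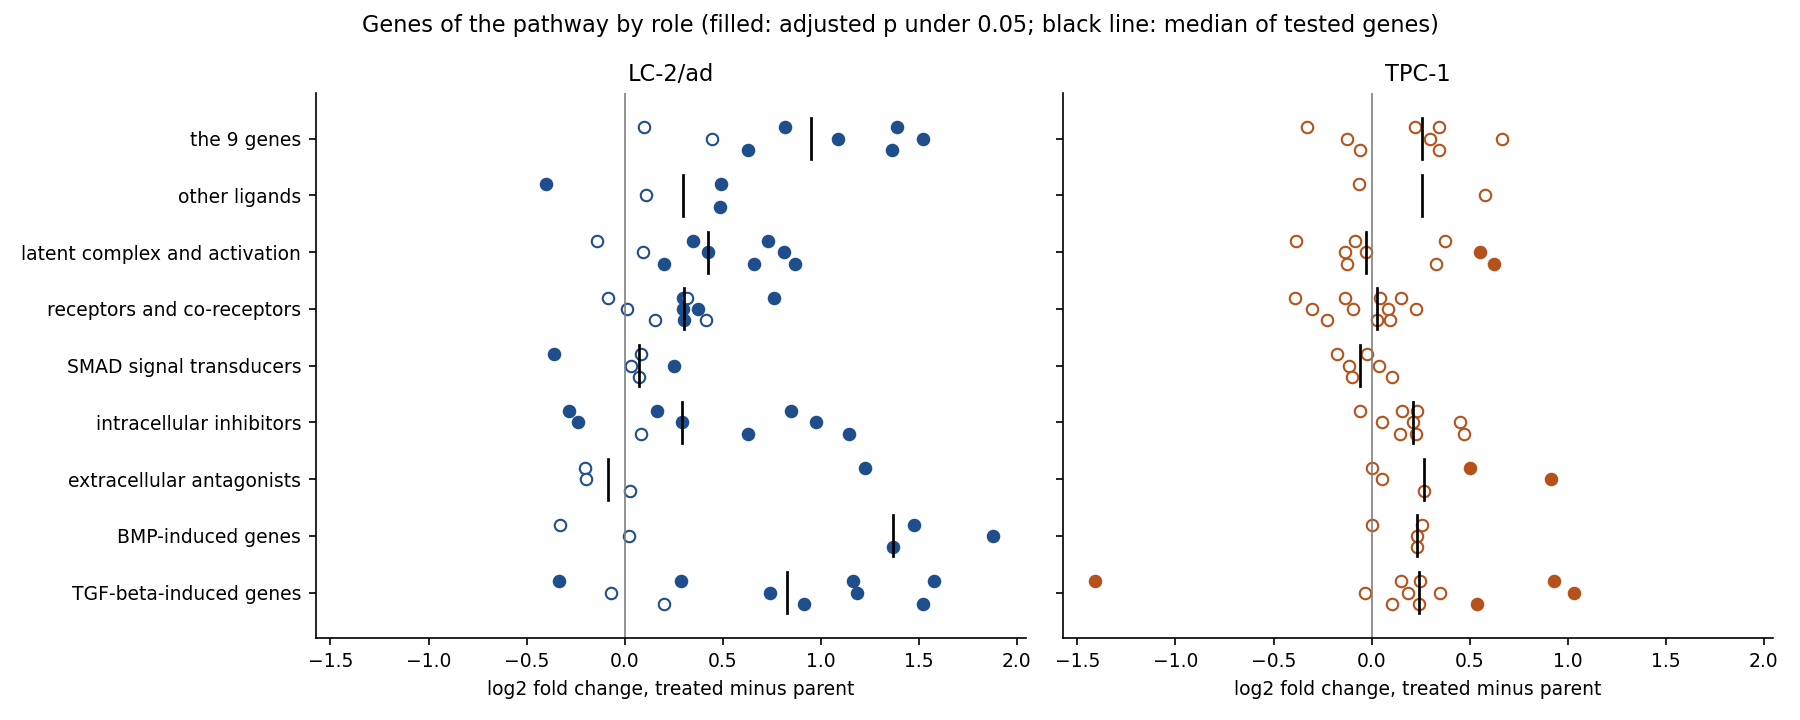
Log2 fold change, treated minus parent (horizontal axes), of each tested gene of the 9 and of the 8 lists (rows) in LC-2/ad and TPC-1. Filled points have an adjusted p under 0.05, and black lines are the medians of the tested genes of a row. In LC-2/ad the largest list medians are those of the BMP-induced (1.37) and TGF-beta-induced genes (0.83), and in TPC-1 all list medians lie between -0.06 and 0.27.

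Of 20 other ligand genes 4 could be tested in LC-2/ad: 2 rose and 1, GDF11, fell (-0.40 ± 0.13). Of all tested genes 30.6% rose and 24.4% fell there. The GDF11 call was lost in 5 of the 6 fits that left out a library, with no filter and with mitochondrial genes removed (adjusted p up to 0.0966). INHBB, the subunit of activin B, rose from 40.7 ± 0.489 to 57.6 ± 0.930 TPM (log2 fold change 0.49 ± 0.04) and was listed at 0 in all TPC-1 libraries, the reverse of INHBA. BMP3 rose by 0.48 ± 0.10 to a mean of 6.36 TPM. In TPC-1 2 of these genes were tested and none changed (4.96% of all tested genes).

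Genes that store or release latent TGF-beta rose in 7 of 9 tested cases in LC-2/ad (30.6% of all tested genes) and in 2 of 9 in TPC-1 (3.75% of all), and none fell. With median-of-ratios scaling LTBP3 fell and FURIN lost its call in LC-2/ad. ITGB6, the beta subunit of an integrin that activates latent TGF-beta, rose from 15.5 ± 0.545 to 29.2 ± 2.01 TPM in LC-2/ad. Its partner ITGAV rose in both lines, by 0.73 ± 0.05 in LC-2/ad and by 0.55 ± 0.11 in TPC-1 (limma adjusted p = 0.0287), where the call was lost in 4 of the 6 fits that left out a library. THBS1, thrombospondin 1, which can release TGF-beta from its latent form, rose from 92.7 ± 2.67 to 164 ± 2.31 TPM in LC-2/ad and from 1363 ± 146 to 2098 ± 223 TPM in TPC-1, with log2 fold changes of 0.81 ± 0.04 and 0.62 ± 0.09. The TPC-1 rises of THBS1 and ITGAV did not pass with no filter or with no variance trend (limma adjusted p up to 0.0732 and 0.127). The LC-2/ad call of LTBP2, among the 7 of 9, was lost in 2 of the 6 fits that left out a library (adjusted p up to 0.0560).

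Receptor and co-receptor genes rose in 5 of 10 tested cases in LC-2/ad (30.6% of all tested genes) and in none of 11 in TPC-1 (3.75% of all). BMPR2, the type II BMP receptor, rose from 9.23 ± 0.450 to 16.4 ± 2.01 TPM in LC-2/ad and was at 28.9 and 29.6 TPM in TPC-1. ACVR1, a type I receptor, rose by 0.37 ± 0.08 in LC-2/ad. The TGF-beta receptors TGFBR1 and TGFBR2 and the BMP receptor BMPR1A each rose by 0.30. The BMPR1A call was lost with median-of-ratios scaling and without parent replicate 2 or 3 or treated replicate 1 or 2 (adjusted p up to 0.0685). Among the SMAD transducers of LC-2/ad 1 of 5 rose and 1 fell (30.6% and 24.4% of all tested genes). SMAD4, the common partner, rose by 0.25 ± 0.06 (adjusted p = 0.0565 with median-of-ratios scaling). SMAD5, a BMP transducer, changed by -0.36 ± 0.08 (limma adjusted p = 0.00821). None of 6 changed in TPC-1 (4.96% of all tested genes).

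Inhibitors inside the cell rose in 6 of 9 cases and fell in 2 in LC-2/ad (30.6% and 24.4% of all tested genes), and none of 9 changed in TPC-1 (4.96% of all). The smallest of the 6 rises, SMURF1 (0.16 ± 0.06), lost its call in 5 of the 6 fits that left out a library. It was also lost with median-of-ratios scaling and with the replicate block (adjusted p up to 0.279). The 2 that fell were the ubiquitin ligase SMURF2 (-0.24 ± 0.05) and the repressor SKI (-0.28 ± 0.06). BAMBI, a decoy receptor, rose from 1.38 ± 0.156 to 4.25 ± 0.268 TPM, and PMEPA1, which holds back SMAD2 and SMAD3, from 67.8 ± 1.36 to 134 ± 7.47 TPM. Of 12 secreted antagonists 1 of 4 tested rose in LC-2/ad (30.6% of all tested genes) and 2 of 5 in TPC-1 (3.75% of all). FSTL3, which binds activins, rose in both lines, from 49.7 ± 1.84 to 118 ± 5.06 TPM and from 53.0 ± 4.95 to 100.8 ± 6.75 TPM (limma adjusted p = 0.000513 in TPC-1). NOG, the BMP antagonist noggin, rose in TPC-1 by 0.50 ± 0.09 (limma adjusted p = 0.0161), and the call was lost without parent replicate 3 or treated replicate 2, with adjusted p up to 0.0817.

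Of 5 tested BMP-induced genes 3 rose in LC-2/ad (30.6% of all tested genes) and none of 4 changed in TPC-1 (4.96% of all). ATOH8, a transcription factor induced by BMP, rose from 3.00 ± 0.440 to 13.7 ± 0.461 TPM in LC-2/ad and had 20.0 ± 1.12 and 24.0 ± 4.51 TPM in TPC-1 (limma adjusted p = 0.334). ID2 rose from 28.2 ± 1.72 to 80.3 ± 2.91 TPM in LC-2/ad. In TPC-1 it had 65.8 ± 6.24 and 66.8 ± 15.1 TPM, with a log2 fold change of 0.00 whose sign turned under both other scalings. ID4 rose by 1.37 ± 0.07 in LC-2/ad, from 14.0 to 37.6 TPM. Of the TGF-beta-induced genes 7 of 10 rose and 1 fell in LC-2/ad (30.6% and 24.4% of all tested genes). In TPC-1 3 of 11 rose and 1 fell (3.75% and 1.21% of all). TAGLN, an actin-binding protein, and PDGFB, a growth factor, rose in both lines, by 1.18 ± 0.08 and 1.17 ± 0.11 in LC-2/ad and by 0.54 ± 0.06 and 0.93 ± 0.08 in TPC-1. NEDD9, a scaffold protein of adhesion sites, rose from 34.0 ± 0.492 to 99.6 ± 2.08 TPM in LC-2/ad. ANGPTL4, a secreted inhibitor of lipoprotein lipase, fell in TPC-1 from 2.75 ± 0.181 to 0.413 ± 0.117 TPM (limma adjusted p = 0.00293), and it passed the filter through its parent libraries. BHLHE40, a transcriptional repressor, was the gene of this list that fell in LC-2/ad (-0.34 ± 0.06). GDF11, TGFBR1, TGFBR2, BMPR1A, SMAD9, SMURF1, SMURF2, SKI, LTBP2, LTBP3, FURIN, ID4, TAGLN and PDGFB were named after their values were seen.

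The genes with the most similar pattern were found by Pearson's r of log2(TPM + 1), centred within each line, over the 12 libraries and 11996 genes. The libraries of a line share treatment groups, so these values are a description. The highest were PXDC1 (0.99) and CTSO (0.99) for TGFB2, ANKRD29 (0.97) and IL17RC (0.97) for BMP4, and PAM (0.98) and MTCL1 (0.98) for SMAD7. For ID1 they were C11orf68 (0.98) and PLEKHH3 (0.97), and for ID3 ABCC5 (0.99) and TAPBPL (0.98). For TGFB1 they were CRIPT (0.90) and MTND2P28 (0.89), a mitochondrial pseudogene that may share reads with its source, and for TGFB3 SFSWAP (0.93) and NEK6 (0.91). Among the 9 genes themselves r was 0.96 for ID1 and ID3, 0.93 for TGFB2 and ID3, 0.92 for TGFB2 and SMAD7 and 0.91 for SMAD7 and ID3. TGFB1 and TGFB3 had an r of -0.09.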

How the data were processed

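Per the file headers and labels, the authors deposited gene-level TPM, with 1 table for each line. Salmon, bcl2fastq 2.20.0 and the build GRCh38 are named in the submitters' processing notes. The annotation and the way transcripts were summed to genes are not given in the sources used here. TPM hold no depth. Precision is therefore given by the spread between libraries. Symbols were found for 34436 genes, and coordinates are those of GENCODE 29. Groups came from the sample labels. Within each line limma 3.58.1 in R 4.3.3 compared log2(TPM + 1) where the mean reached 1 TPM, with a variance trend and two-sided Benjamini-Hochberg adjusted p under 0.05. Intervals are limma's 95% ones. The difference between lines was the interaction over 12 libraries. The scripts were tested on simulated data. The members, gene lists and tests were chosen with earlier results of these data known. Named were the 9 genes, the 2 called genes with the largest change per list and line, the 2 pathway genes with the largest difference between lines in each direction, and the 2 most similar genes per member. A gene that this rule names is not reported here. Alternatives were pseudocounts of 0.1 and 5, a mean of 5 TPM as the filter or none, 2 other scalings (median of ratios; mitochondrial genes removed), no variance trend, a replicate block and left-out libraries. A spread weight per line was added after seeing the data.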

Additional observations from a re-analysis of the deposited data

Results flagged for a closer look

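A change that differed between the lines was found, by the limma interaction test, for the named genes below, given as the log2 fold change in TPC-1 minus that in LC-2/ad. Of the 9 genes these were BMP4 (-1.85), TGFB2 (-1.05), ID3 (-0.70) and SMAD7 (-0.52), described above. Of the other pathway genes the difference was -1.65 for ATOH8, -1.48 for ID2, -0.83 for PMEPA1, -0.74 for BMPR2, -0.67 for BAMBI, -0.49 for ITGB6 and -0.31 for FSTL3. With a library left out the call was lost in 10 of 12 fits for ITGB6 (adjusted p up to 0.0974), in 6 for FSTL3 (up to 0.0641) and in 11 for MSX1 (up to 0.103), and for ITGB6 and MSX1 also with the replicate block and with a pseudocount of 0.1 (adjusted p = 0.276 for ITGB6). It was positive for MSX1 (0.59), a homeobox gene that BMP induces, and for BHLHE40 (0.49), a TGF-beta-induced repressor that fell in LC-2/ad by 0.34 on the log2 scale. MSX1 was low, at 1.34 to 2.75 TPM as group means, and passed the test in neither line (limma adjusted p = 0.0591 for LC-2/ad, 0.489 for TPC-1).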

How the results depend on the processing

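In LC-2/ad 5 to 7 of the 9 genes were called under every alternative. BMP4, TGFB2, SMAD7, ID1 and ID3 kept direction and call in all of them, and BMP2 in all that tested it. In TPC-1 the count was 0, except 1 (ID3) at a mean TPM of at least 5, and 0 to 2 with a library left out. For the difference between lines it was 4 in the main fit, against 2 of 4 tested at a mean TPM of at least 5 and 3 with the replicate block. There TGFB1 gained a call under 1 other setting (limma adjusted p = 0.0306). With a library left out ID3 lost its call in 5 of 12 fits and ID1 gained one in 1 (limma adjusted p = 0.0422). Replicate numbers did not pair the libraries: correlations of same-numbered deviations were -0.05 to 0.05, and with the block 36, 9 and 22 pathway genes were called in LC-2/ad, TPC-1 and the difference, against 37, 8 and 25. Reversals of sign were seen in TPC-1 alone, for genes whose change in that line did not pass the test. With median-of-ratios scaling BMPR2 was -0.030, SMAD4 -0.020 and ID2 -0.054, and with mitochondrial genes removed ID2 was -0.0077. With a library left out TGFB3 ran from -0.53 to 0.41, BMPR2 from -0.044 to 0.13, SMAD5 from -0.071 to 0.068, SMAD4 from -0.017 to 0.079 and ID2 from -0.15 to 0.18. The cause was not tested. TPM give no depth, so what counting error limits is unknown.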

Other observations

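The lines also differed in which secreted antagonists and ligands they held, by levels that were not tested between the separately made tables. CHRDL1, a chordin-like BMP antagonist, had 89.1 ± 9.57 TPM (SD, n = 3) in TPC-1 parent and 88.8 ± 3.52 TPM in treated cells, and under 1 TPM in LC-2/ad. AMH, the anti-Müllerian hormone, had 9.51 ± 4.10 and 14.2 ± 3.64 TPM in TPC-1 (limma adjusted p = 0.264) and under 1 TPM in LC-2/ad. GREM1, the BMP antagonist gremlin 1, was under the filter in TPC-1, with 0.0722, 0.0123 and 0.0124 TPM in parent and 2.08, 1.76 and 0.192 TPM in treated libraries. Treated replicate 3, the lowest treated library for INHBA, SMAD7, ID1 and ID3, was also the lowest for GREM1. These 3 genes were chosen after their values were seen.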
